A study of Mus musculus with 2 samples.

Results

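Pituitary lineage transcription factors are the genes described here, a named set of 8 that was taken by symbol from the 27998 genes of the deposited matrices: *Pax7*, *Tbx19*, *Pitx1*, *Lhx3*, *Pou1f1*, *Isl1*, *Neurod1* and *Sox2*. All 8 were found in the matrices and in the deposited table of cluster means. The tissue was the neurohypophysis (NH, the posterior lobe of the pituitary) of male C57BL/6 mice aged 3 months, dissociated and captured as single cells on the 10x Genomics platform. Some intermediate lobe (IL), which borders the NH, came along in the dissection. There were 2 pools of 5 mice, which are replicates of a single untreated group, so that the comparisons run between cell types and not between conditions. No label ties a cell to a mouse, and 273 cells of pool 1 and 255 cells of pool 2 were analysed.

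The pituitary has a dual origin. The anterior and intermediate lobes arise from oral ectoderm (Rathke's pouch), and the NH arises from the floor of the diencephalon, with pituicytes as its resident astroglia. The homeodomain factors *Pitx1* and *Lhx3* are needed early in the pouch. *Tbx19* (Tpit) is the T-box factor that switches on *Pomc*, the prohormone gene of corticotropes and melanotropes, and *Pax7* is the pioneer factor that sets melanotropes of the IL apart from corticotropes. *Neurod1* acts with *Tbx19* in corticotropes, *Pou1f1* (Pit1) sets the somatotrope, lactotrope and thyrotrope lineages, *Isl1* is a LIM homeodomain factor of gonadotropes and thyrotropes, and *Sox2* marks stem and progenitor cells of the pouch derivatives as well as many neural progenitors and glia.

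On the mouse genome build GRCm38 (GENCODE M21), *Pax7* lies at chr4:139737062-139833528 on the minus strand, *Tbx19* at chr1:165137855-165160773 on the minus strand, *Pitx1* at chr13:55825051-55836192 on the minus strand and *Lhx3* at chr2:26200212-26208289 on the minus strand. *Pou1f1* lies at chr16:65520511-65535005 on the plus strand, *Isl1* at chr13:116298281-116309689 on the minus strand and *Neurod1* at chr2:79452521-79456751 on the minus strand. *Sox2*, at chr3:34650405-34652461 on the plus strand, sits inside the longer transcript *Sox2ot* of the same strand, which is not a row of the matrices.

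The promoters of *Tbx19*, *Pax7* and *Lhx3*, which had most of their molecules in IL cells, and of *Sox2*, which had most in pituicytes, are shown because these genes carry the contrast between the cell types. RefSeq (GRCm38.p6) held a window for 7 of the 8 genes, each of 300 bases with 250 before and 50 after a gene start. These gene starts are not always those of the GENCODE coordinates above. The *Sox2* window ends before the GENCODE start of *Sox2*, and the *Pax7* window lies inside the GENCODE gene. *Pitx1* had none, and *Lhx3* had 2, of which the upstream one is shown. Capitals mark a homeodomain site (TAATTA) or a SOX site (ACAAAG), searched on both strands.
Tbx19, chr1:165160724-165161023, minus strand: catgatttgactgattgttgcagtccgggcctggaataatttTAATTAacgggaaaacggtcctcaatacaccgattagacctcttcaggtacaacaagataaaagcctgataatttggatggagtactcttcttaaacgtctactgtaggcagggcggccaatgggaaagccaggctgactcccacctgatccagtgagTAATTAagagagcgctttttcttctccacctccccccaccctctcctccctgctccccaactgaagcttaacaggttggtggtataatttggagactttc
Pax7, chr4:139832919-139833218, minus strand: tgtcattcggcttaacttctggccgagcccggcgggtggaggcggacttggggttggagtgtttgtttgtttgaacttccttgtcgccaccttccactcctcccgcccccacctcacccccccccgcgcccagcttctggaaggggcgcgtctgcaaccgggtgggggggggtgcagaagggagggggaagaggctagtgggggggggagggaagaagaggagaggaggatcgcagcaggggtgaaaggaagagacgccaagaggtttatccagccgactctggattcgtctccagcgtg
Lhx3, chr2:26208200-26208499, minus strand: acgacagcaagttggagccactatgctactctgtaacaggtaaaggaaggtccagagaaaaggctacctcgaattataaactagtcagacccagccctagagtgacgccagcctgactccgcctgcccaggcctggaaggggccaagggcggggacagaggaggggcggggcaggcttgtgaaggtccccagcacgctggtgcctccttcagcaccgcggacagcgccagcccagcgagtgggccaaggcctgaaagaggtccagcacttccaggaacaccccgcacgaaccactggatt
Sox2, chr3:34649745-34650044, plus strand: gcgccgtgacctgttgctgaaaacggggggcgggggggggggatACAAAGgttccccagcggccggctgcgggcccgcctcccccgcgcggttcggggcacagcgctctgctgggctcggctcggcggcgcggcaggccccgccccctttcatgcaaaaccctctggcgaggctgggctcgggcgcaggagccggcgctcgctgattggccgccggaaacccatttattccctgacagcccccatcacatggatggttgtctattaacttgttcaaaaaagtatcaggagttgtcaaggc

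The *Tbx19* window held TAATTA in 2 places, 208 and 50 bases before the gene start, a motif present in 5.29% of all 32851 windows. The Pitx bicoid site TAATCC (7.06% of windows) and the T-box site TCACACC (3.98%) were in none of the 4 windows printed. The *Sox2* window held 1 ACAAAG, present in 18.7% of all windows, and the *Pax7* and *Lhx3* windows held none of the 4 motifs. A match is a run of letters and was not tied to binding by any measurement here.

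Cells were placed in the 11 clusters of the deposited table of means, which form 7 types: 148 IL cells, 196 pituicytes, 23 epithelial-like cells, 95 macrophage/microglia, 42 T-cell like cells, 13 vascular endothelia and 11 vascular and leptomeningeal cells (VLMC). The table names the IL clusters neural progenitor a and b. Defining markers were high in the types used most. The 4 IL markers (*Pomc*, *Pcsk2*, *Scg2* and *Chga*) summed to 96025 to 126319 UMIs per 1000000 (CPM) in IL cells and 3239 to 4137 CPM in pituicytes, the 6 pituicyte markers to 5555 to 5649 CPM in pituicytes, and the 5 epithelial markers to 4196 to 5177 CPM in epithelial-like cells. A UMI is a unique molecular identifier, and counts 1 captured mRNA molecule. The 14 sums of a type in a pool held 8491 to 281271 UMIs, no barcode was shared between the pools, and the median cell held 2050 UMIs in pool 1 and 2330 in pool 2. The deposited clusters rest on variable genes. A repeat of that choice with 900 genes held 4 of the 8 factors (*Pax7*, *Tbx19*, *Pou1f1* and *Isl1*), so that differences between types in these 4 may not be independent of the types. Of the marker lists for other cells, 4 neuron markers, which endocrine cells also express, summed to 1305 to 1379 CPM in IL cells and 25.5 to 51.3 CPM in pituicytes, and 5 erythrocyte markers to 42.7 to 365 CPM and 51.3 to 89.1 CPM. The 9 anterior lobe endocrine markers summed to 156 CPM in pool 1 and 9397 CPM in pool 2 of IL cells. In epithelial-like cells they summed to 35202 and 2081 CPM, and in pituicytes to 63.7 and 276 CPM. The part of these marker lists in the results was not tested.

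*Pax7* and *Tbx19*, the melanotrope pair, lay mostly in IL cells. Of 79 *Pax7* UMIs, 96.2% lay in IL cells, and of 79 *Tbx19* UMIs, 89.9%. *Pitx1*, *Lhx3* and *Pou1f1* had 87.0% of 46, 92.0% of 25 and 86.7% of 15 UMIs there. *Sox2* was spread differently, with 60% of its 135 UMIs in pituicytes, 21.5% in IL cells and 16.3% in the small epithelial-like cluster. *Isl1* had 7 of its 8 UMIs in epithelial-like cells, and *Neurod1*, with 5 UMIs in all, was near the limit of detection everywhere.

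**Figure D1:**
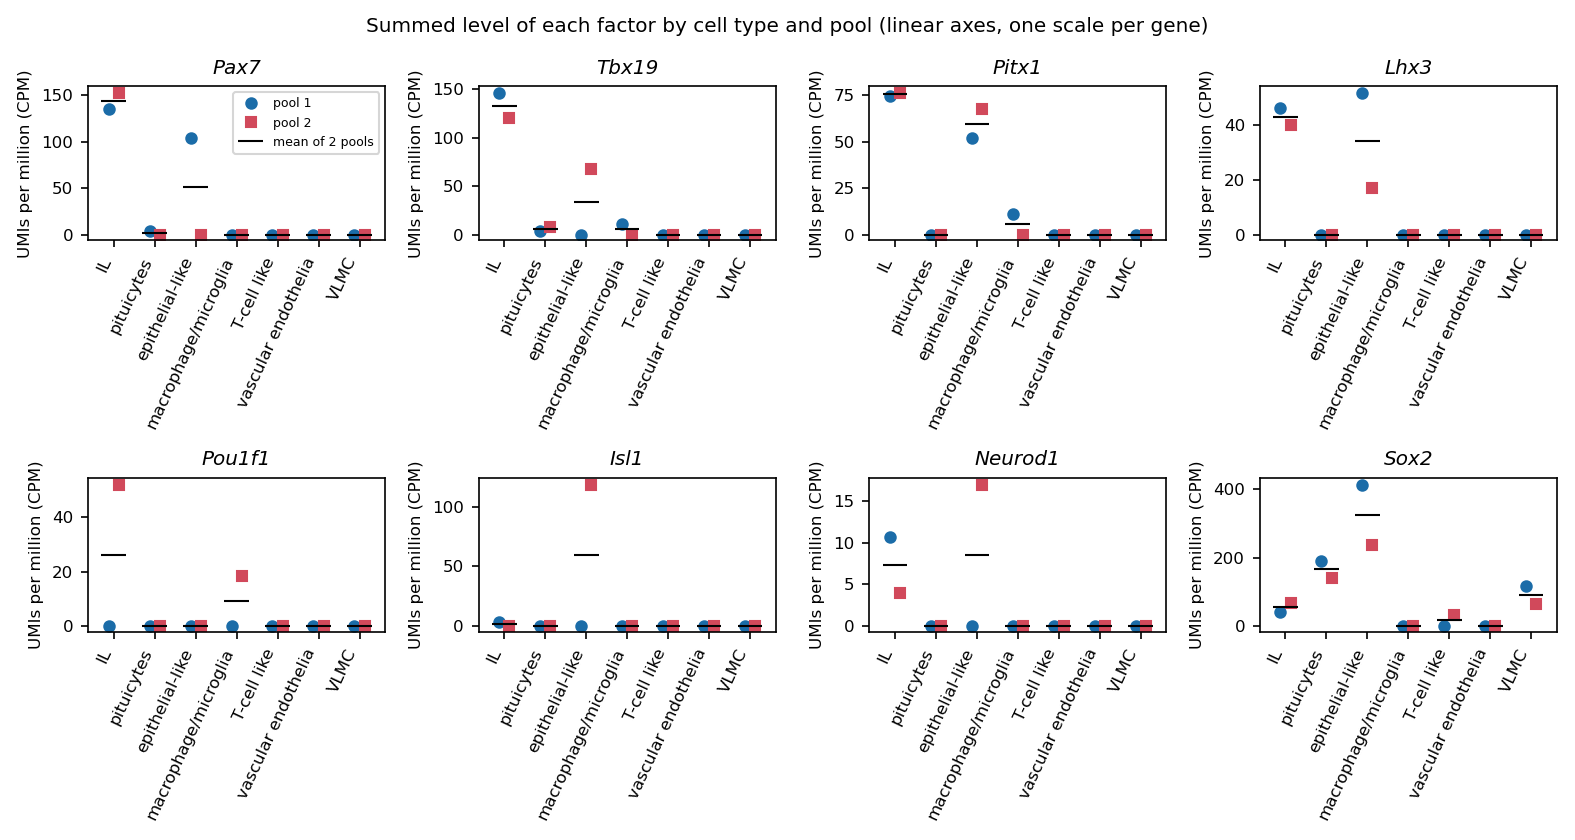
CPM (linear axis, one scale per gene) of each of the 8 factors in the 7 cell types; circles are pool 1, squares are pool 2 and lines are the mean of both. *Pax7*, *Tbx19*, *Pitx1* and *Lhx3* were above 40 CPM in both pools of IL cells, *Sox2* was highest in epithelial-like cells and pituicytes, and *Pou1f1* was above 0 in pool 2 alone.

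*Pax7* was at 135 CPM in IL cells of pool 1 and 152 CPM in pool 2 (144 ± 12.1, SD, n = 2), from 38 UMIs in each pool. Pituicytes held 1 UMI in pool 1 (4.24 CPM) and 0 in pool 2, epithelial-like cells 2 UMIs in pool 1 (104 CPM) and 0 in pool 2, and the other 4 types 0 in both pools. The level measured in IL cells was thus above that of every other type in both pools, and the epithelial-like value rested on 1 cell with 2 UMIs. The ratio of epithelial-like to IL cells was 0.178 (95% counting interval 0.0212 to 0.666) over both pools and 0.766 (0.0896 to 2.97) in pool 1. In vascular endothelia and VLMC, a count of 0 in a single pool allows 199 to 353 CPM, above the IL level. Over both pools the level in IL cells was 70.0 times that in pituicytes (95% counting interval 12.2 to 2802), a value that rests on the 1 pituicyte UMI. In pool 1 the ratio was 31.8 (5.38 to 1290), and in pool 2, with 0 UMIs in pituicytes, at least 12.9. The level in IL cells was 42.7 times that in all other cells together over both pools (14.1 to 212), 18.8 times in pool 1 (5.98 to 95.4) and at least 24.2 times in pool 2. The intervals are exact and cover counting error only. The values given as at least set a count of 0 at 3 UMIs and leave out the counting error of IL cells. With that error, the ratio of pituicytes to IL cells in pool 2 was 0 (0 to 0.100).

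*Tbx19* was at 146 CPM in IL cells of pool 1 and 120 CPM in pool 2 (133 ± 18.1, SD, n = 2), from 41 and 30 UMIs. It was at 4.24 and 7.89 CPM in pituicytes, at 0 and 67.7 CPM in epithelial-like cells and at 11.3 and 0 CPM in macrophage/microglia, and at 0 in the other 3 types. The level measured in IL cells was above that of every other type in both pools, while epithelial-like cells, pituicytes and macrophage/microglia overlapped. The ratio of epithelial-like to IL cells was 0.381 (0.101 to 1.02) over both pools and 0.563 (0.144 to 1.60) in pool 2. In pool 1 the count of 0 in epithelial-like cells allows up to 155 CPM. No difference between epithelial-like and IL cells was thus detectable by counting. The level in IL cells was 21.8 times that in pituicytes (7.17 to 108) over both pools, 34.4 times in pool 1 (5.83 to 1389) and 15.2 times in pool 2 (3.87 to 132).

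In the test across 4510 genes (edgeR's quasi-likelihood test on the 14 sums, each type against the mean of the other 6), *Pax7* (adjusted p = 1.68e-14) and *Tbx19* (adjusted p = 1.99e-11) were called higher in IL cells, and *Sox2* was not (adjusted p = 0.0834, n = 2 pools). A gene was called where p, adjusted by Benjamini-Hochberg, did not exceed 0.05 and the natural log fold reached 1. Against the mean of the other types only higher levels could be called. For IL cells against pituicytes a change in either direction could be called. Of all genes tested, 16.9% were called higher in IL cells. Against pituicytes alone, *Pax7* (adjusted p = 2.08e-11) and *Tbx19* (adjusted p = 2.96e-09) were again called higher in IL cells, beside 6.72% of all genes. Only *Pax7*, *Tbx19* and *Sox2* passed the filter on low counts, and they passed it through the types where they were high. The other 5 factors were not tested. Since the other types were mostly at 0, the fitted folds depend on the prior count and are not given here. DESeq2 on the same sums did not call *Pax7* in IL cells (adjusted p = 0.531) and gave no adjusted p for *Tbx19*, and 1 of the 3 (*Tbx19*) had an unadjusted p under 0.05. When the cells were clustered anew without the 8 factors and the other listed genes, 493 of 528 cells fell in the same type, and edgeR again called *Pax7* (adjusted p = 5.94e-17) and *Tbx19* (adjusted p = 9.72e-15) in IL cells, with *Pitx1* (adjusted p = 1.51e-08). Each new cluster took the name of its most common deposited type. This gave 5 types, since vascular endothelia and VLMC joined the epithelial-like cells, so these p-values are against fewer types. Genes that vary with the factors stayed in the clustering.

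The low values outside IL cells can be set beside free RNA. In 157608 barcodes of pool 1 that held 1 to 50 UMIs each, *Pax7* was at 9.51 CPM, *Tbx19* at 15.3 CPM, *Pitx1* at 10.0 CPM, *Lhx3* at 6.87 CPM and *Sox2* at 34.3 CPM. In pool 1 the *Pax7* and *Tbx19* levels measured in pituicytes (4.24 CPM, from 1 UMI each) were below these values, a count too low to show a difference. Epithelial-like cells of pool 1 were at 104 CPM for *Pax7*, from 2 UMIs, and at 0 for *Tbx19*. Pool 2 held 1500 barcodes only and had no such group. The part of free RNA in these levels was not tested. The only pituicyte with a *Pax7* UMI carried 17.7% of its UMIs as *Pomc*, and of the 2 with *Tbx19* UMIs 1 carried 9.05% and the other 0.0274%, where the median pituicyte carried 0.0309%.

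*Pitx1*, shared by all pituitary lineages, was even between the pools in IL cells, at 74.7 and 76.1 CPM (75.4 ± 1.05, SD, n = 2), from 21 and 19 UMIs. Epithelial-like cells came next, at 51.8 and 67.7 CPM from 1 and 4 UMIs, followed by macrophage/microglia at 11.3 and 0 CPM. Pituicytes held 0 of 489135 UMIs, so that IL cells were at least 12.3-fold higher than the level of 3 UMIs taken as the limit for a count of 0. Against epithelial-like cells no difference was detectable, with a ratio of epithelial-like to IL cells of 0.846 (0.261 to 2.14).

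*Lhx3*, a LIM homeodomain factor of the pouch, was at 46.2 and 40.1 CPM in IL cells, from 13 and 10 UMIs, and at 51.8 and 16.9 CPM in epithelial-like cells, from 1 UMI in each pool. The ranges of these types overlapped. All other types were at 0 in both pools, and IL cells were at least 7.06-fold higher than the limit in pituicytes.

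Cell by cell, a UMI of *Pax7* was found in 49 of 148 IL cells (33.1%, 95% exact binomial interval 25.6 to 41.3%), of *Tbx19* in 48 (32.4%, 25 to 40.6%), of *Pitx1* in 31 (20.9%, 14.7 to 28.4%) and of *Lhx3* in 21 (14.2%, 9.0 to 20.9%). In pituicytes the shares were 0.510%, 1.02%, 0% and 0%. A count of 0 among 196 pituicytes allows a share of up to 1.53% of cells with a UMI. The immune types (137 macrophage/microglia and T-cell like cells), which lack this lineage, gave 0%, 0.730%, 0.730% and 0%, where a count of 0 allows up to 2.19%.

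IL cells were deeper than the rest, with a median of 3249 UMIs against 2056 in pituicytes. After every cell was thinned to 1000 UMIs, the expected share of IL cells with a UMI fell to 12.1% for *Pax7*, 10.9% for *Tbx19*, 5.80% for *Pitx1* and 4.33% for *Lhx3*, against 0.115%, 0.274%, 0% and 0% in pituicytes. No cell was shallower than 1000 UMIs, so none was left out. The order of the types thus held at equal depth for these genes.

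**Figure D2:**
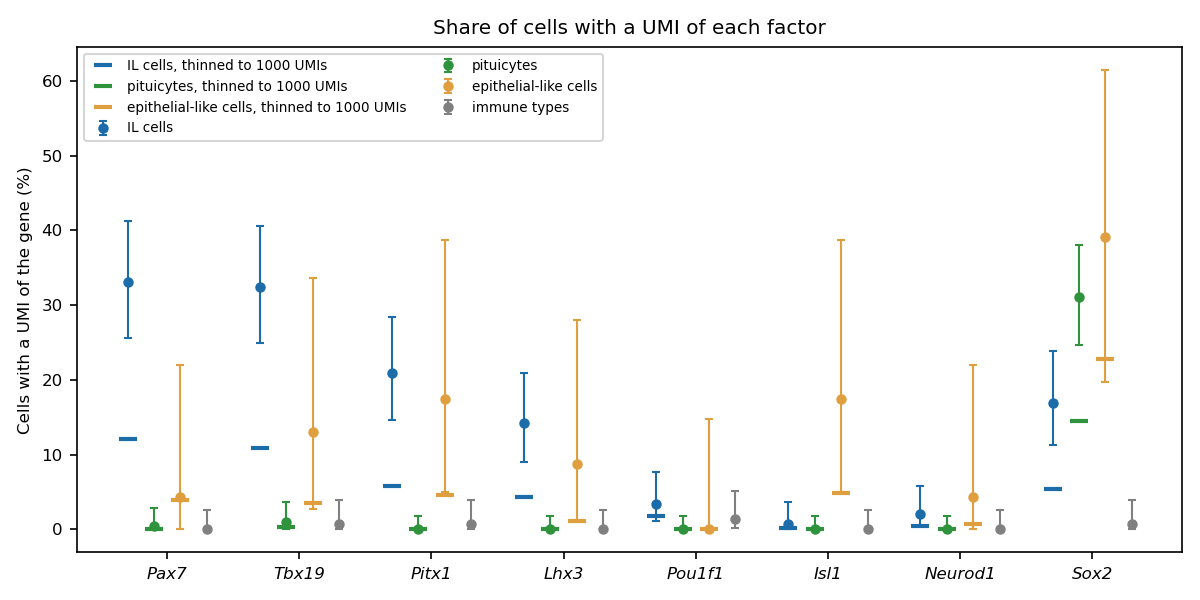
Share of cells (%) with a UMI of each factor in IL cells, pituicytes, epithelial-like cells and the immune types together; points have 95% exact binomial intervals and dashes give the share expected at 1000 UMIs per cell. *Pax7* and *Tbx19* were found in 33.1% and 32.4% of IL cells, and *Sox2* in 31.1% of pituicytes.

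Of the 148 IL cells, 96 had a UMI of at least 1 of the 7 factors other than *Sox2*, and 45 had 2 or more of them. *Pax7* and *Tbx19* occurred together in 22 IL cells, so that *Tbx19* was found in 44.9% of IL cells with *Pax7* and in 26.3% of those without. The cells with *Pax7* were also deeper, with a median of 3897 UMIs against 2954, and the part of depth in this difference was not tested. Their share of *Pomc* was much the same, at a median of 10.1% against 9.35% of UMIs. In pituicytes, 3 of 196 cells had any of the 7 factors, and in epithelial-like cells 10 of 23.

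Both IL clusters carried the melanotrope factors. In neural progenitor b, *Pax7* was at 180 CPM and *Tbx19* at 172 CPM, and in neural progenitor a at 112 and 101 CPM, ratios of 1.61 (0.999 to 2.63) and 1.70 (1.03 to 2.83) from counting alone. For *Pax7* the ratio was 1.49 (0.745 to 3.07) in pool 1 and 1.79 (0.902 to 3.62) in pool 2. For *Tbx19* it was 1.02 (0.527 to 1.98) in pool 1 and 3.39 (1.49 to 8.41) in pool 2, so that its difference rested on pool 2. *Pitx1* (1.43, 0.734 to 2.83), *Lhx3* (1.28, 0.517 to 3.20) and *Sox2* (0.953, 0.421 to 2.11) did not differ detectably between the clusters. *Pou1f1* did over both pools together, with all 13 of its IL UMIs in neural progenitor a and 0 of 244352 UMIs in neural progenitor b. Both clusters were at 0 in pool 1, so that this difference rested on pool 2. The 13 UMIs came from 5 cells and are not independent counts.

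*Pou1f1*, the factor of the *Gh*, *Prl* and *Tshb* lineages, separated the pools. It was at 0 CPM in IL cells of pool 1 (0 of 281271 UMIs) and at 52.1 CPM in pool 2 (13 UMIs), and its only other UMIs were 2 in macrophage/microglia of pool 2. The 13 UMIs came from 5 cells, with 4, 3, 3, 2 and 1 UMIs. In each of the 5, *Gh* (growth hormone) and *Prl* (prolactin) together took at least 1% of the UMIs: *Gh* took 29.4% of 1 cell and 3.09% of another, and *Prl* took 7.60%, 2.18% and 1.30% of the others. None of the 5 had a UMI of *Pax7*, *Tbx19* or *Sox2*, while 2 had *Pitx1* and 2 had *Lhx3*.

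In 4 of the 5 *Pou1f1* cells, *Pomc* took 0.0303 to 0.130% of the UMIs, against a median of 9.98% in IL cells without *Pou1f1*. The fifth, with 1 *Pou1f1* UMI, carried 5.50% *Pomc* and 7.60% *Prl*. Over both pools 7 IL cells had *Gh* and *Prl* at 1% or more, all in pool 2, and these 7 held 13 of 13 *Pou1f1* UMIs, 0 of 76 *Pax7* UMIs and 0 of 71 *Tbx19* UMIs. The 7 cells held only 1001 to 5781 UMIs each, of 530811 in all IL cells. A count of 0 in so few UMIs does not show that *Pax7* or *Tbx19* was absent from them. The list of 9 anterior lobe endocrine markers summed to 74847 CPM in the 5 cells, with 3 of 9 detected (*Gh*, *Prl* and *Ghrhr*) and *Tshb*, *Lhb*, *Fshb*, *Gnrhr*, *Crhr1* and *Avpr1b* at 0, and to 3682 CPM in the other 63 IL cells of pool 2. Of these 63, 2 cells held 407 and 371 *Gh* UMIs, and the remaining 61 were at 295 CPM.

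**Figure D3:**
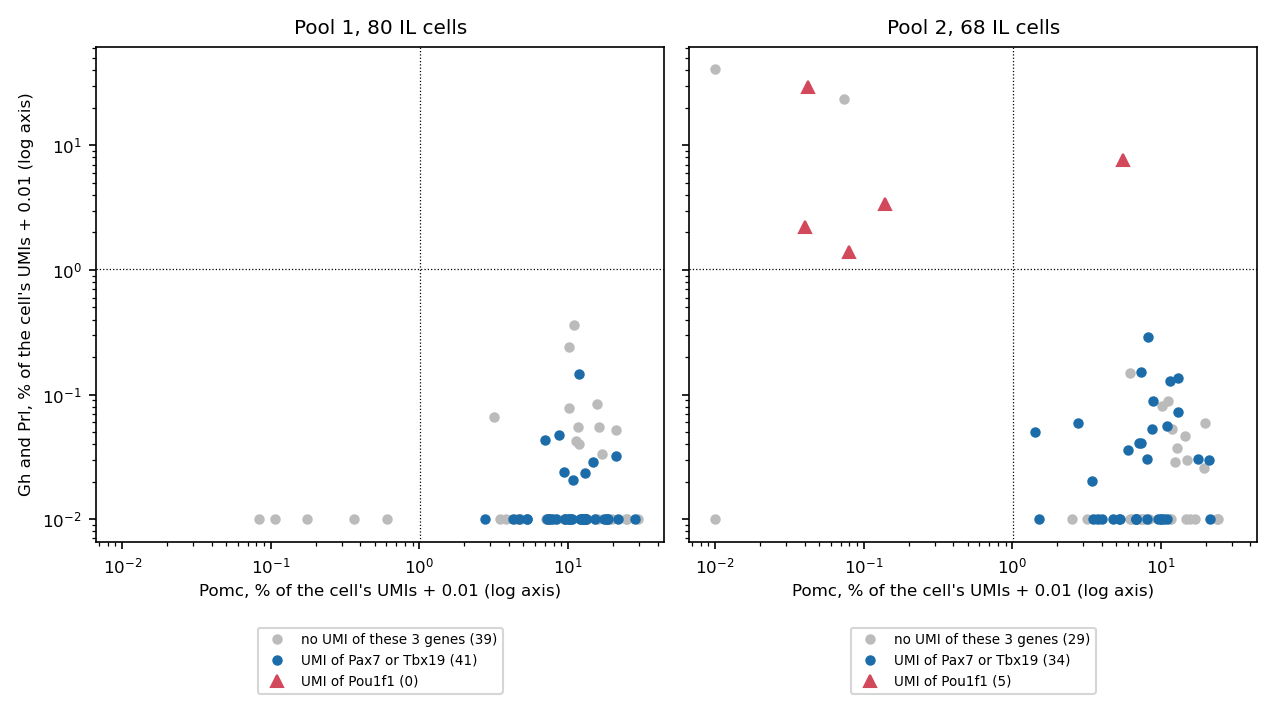
Each point is 1 IL cell, with the *Pomc* share of its UMIs (x) and the share of *Gh* and *Prl* together (y), both in % with 0.01 added on log axes; dotted lines mark 1%, blue marks a UMI of *Pax7* or *Tbx19* and red triangles a UMI of *Pou1f1*. The 5 *Pou1f1* cells lay above 1% *Gh* and *Prl* in pool 2, and no cell with *Pax7* or *Tbx19* did.

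In all, 12 of 148 IL cells (5 in pool 1 and 7 in pool 2) carried under 1% *Pomc*, and they had 0 UMIs of *Pax7* and *Tbx19*. They held 26340 of the 530811 UMIs of IL cells, too few for a count of 0 to show absence. The 5 cells of pool 1 were shallow, with a median of 1214 UMIs, and had 0 UMIs of the 9 anterior lobe markers. They carried 5 of the 6 pituicyte markers, which summed to 2845 CPM (18 UMIs), against 206 CPM in all IL cells of pool 1 and 5555 CPM in pituicytes of that pool, and the part of this in the result was not tested. Leaving these 12 cells out was a choice made after the data were seen, and took no *Pax7* or *Tbx19* UMI from IL cells. Both stayed called, which is therefore no check of these calls. The choice left 1 *Pou1f1* UMI in IL cells. It also removed 1813 of 1878 *Gh* UMIs of IL cells. *Gh* and *Prl* were called higher in IL cells with all cells in, beside 16.9% of all genes. They were at 78.2 and 71.1 CPM in pool 1 and at 7438 and 1916 CPM in pool 2, so the high levels were those of pool 2. In the barcodes of pool 1 with 1 to 50 UMIs they were at 2800 and 439 CPM.

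*Isl1* and *Neurod1* were rare. *Isl1* had 7 UMIs in 4 epithelial-like cells of pool 2 (118 CPM, against 0 in pool 1) and 1 UMI in an IL cell of pool 1. The ratio of epithelial-like to IL cells was 47.4 (6.09 to 2135) over both pools, and a count of 0 in the 7 epithelial-like cells of pool 1, with 19317 UMIs, allows up to 155 CPM. Of the 4 cells, 3 also had *Sox2*, and the other, with 4 *Isl1* UMIs, had *Pitx1* and *Lhx3* and 58 *Prl* UMIs. *Neurod1* was at 10.7 and 4.01 CPM in IL cells (3 UMIs and 1 UMI) and at 0 and 16.9 CPM in epithelial-like cells (0 and 1 UMI), so that no order of these types can be given.

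*Sox2* was highest in epithelial-like cells and next highest in pituicytes. It was at 414 CPM in pool 1 and 237 CPM in pool 2 of epithelial-like cells (326 ± 125, SD, n = 2), from 8 and 14 UMIs, at 191 and 142 CPM in pituicytes (166 ± 34.6), from 45 and 36 UMIs, at 118 and 66.2 CPM in VLMC, from 1 UMI in each pool, and at 42.7 and 68.1 CPM in IL cells (55.4 ± 18.0), from 12 and 17 UMIs. Epithelial-like cells and pituicytes were above IL cells in both pools, and VLMC and IL cells overlapped. T-cell like cells held 1 UMI, and macrophage/microglia 0 of 196578 UMIs. Vascular endothelia were also at 0, which allows up to 126 CPM at their depth.

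Against the mean of the other types, *Sox2* was called higher in pituicytes (log2 fold change 3.44, SE 0.58, adjusted p = 7.16e-08 by edgeR), beside 16.8% of all genes, and in epithelial-like cells (3.98, SE 0.72, adjusted p = 1.63e-06), beside 8.0% of all genes. These folds rest in part on the types at 0. Each SE given with an edgeR fold is that fold divided by the square root of the F statistic. It restates the p-value and is no separate estimate. Each type against all other cells of its pool summed, added after the data were seen, gave 1.43 (SE 0.31, adjusted p = 0.00112) for pituicytes and 1.39 (SE 0.44, adjusted p = 0.0423) for epithelial-like cells, both below the fold limit. Without pool 2 the values were 4.21 and 4.82, and without pool 1 they were 2.95 and 3.62, with no test. *Sox2* was called in both types by DESeq2 as well.

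*Sox2* was called lower in IL cells than in pituicytes, by a log2 difference of -1.47 (SE 0.41, adjusted p = 0.00261 by edgeR), beside 10.0% of all genes called higher in pituicytes. The natural log fold of -1.02 was close to the limit. In counts, pituicytes were at 3.03 times the level of IL cells (1.96 to 4.81), 4.48 times in pool 1 (2.33 to 9.30) and 2.08 times in pool 2 (1.14 to 3.96). The call was lost with DESeq2 (log2 difference -1.47, adjusted p = 0.311) and with cells under 10% mitochondrial UMIs (-1.20, adjusted p = 0.325), which left 11 of 108 pituicytes in pool 1 and 38 of 88 in pool 2. Without pool 1 the log2 difference was -0.92 and without pool 2 it was -2.04, with no test. Epithelial-like cells were at 1.69 times the level of pituicytes (1.01 to 2.74) over both pools, with intervals that included 1 in each pool alone.

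The 3 pituicyte clusters carried *Sox2* at 167, 165 and 164 CPM, with intervals of 118 to 230, 94.2 to 268 and 109 to 237. Their median mitochondrial shares ran from 9.90 to 20.7%. Both IL clusters were lower, at 55.9 CPM (31.9 to 90.7) and 53.2 CPM (28.3 to 91.0). By pool, pituicytes a were at 246 and 131 CPM, pituicytes b at 170 and 157 CPM and pituicytes c at 167 and 159 CPM, so that the near equal levels held over both pools together. Neural progenitor a was at 28.8 CPM (4 UMIs) in pool 1 and 81.2 CPM (12 UMIs) in pool 2, and neural progenitor b at 56.1 and 49.1 CPM.

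**Figure D4:**
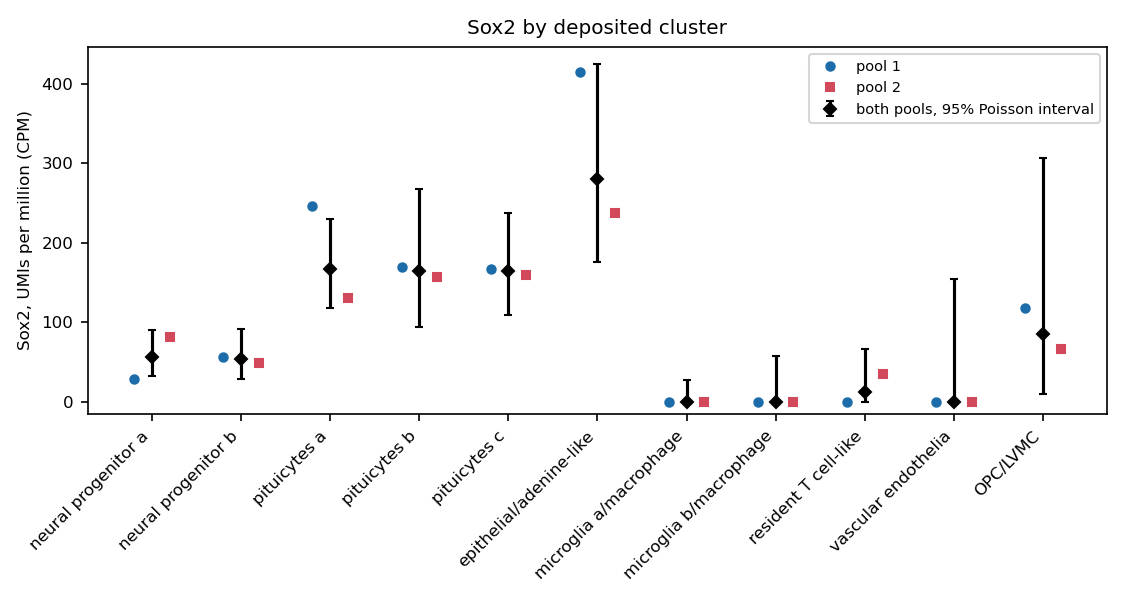
*Sox2* level (CPM, linear axis) in the 11 deposited clusters; black diamonds are both pools together with 95% Poisson intervals, circles are pool 1 and squares are pool 2. Pituicytes a, b and c lay at 164 to 167 CPM, the IL clusters (neural progenitor a and b) at 53.2 and 55.9 CPM and the epithelial cluster at 281 CPM.

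A *Sox2* UMI was found in 61 of 196 pituicytes (31.1%, 24.7 to 38.1%), 9 of 23 epithelial-like cells (39.1%, 19.7 to 61.5%) and 25 of 148 IL cells (16.9%, 11.2 to 23.9%), against 1 of 137 immune cells. At 1000 UMIs per cell the shares were 14.5%, 22.9% and 5.47%, in the same order. *Sox2* occurred without any of the other 7 factors in 60 of the 61 pituicytes, in 3 of the 9 epithelial-like cells and in 6 of the 25 IL cells. In IL cells, 19 cells had *Sox2* with another factor, 12 of them *Pax7* and 14 *Tbx19*. The *Sox2* level of IL cells in pool 1 (42.7 CPM) lay within the interval of the barcodes with 1 to 50 UMIs of that pool (34.3 CPM, 26.5 to 43.8). The level in these barcodes is not the amount that free RNA adds to a cell, which was not measured. The part of free RNA in the *Sox2* UMIs of IL cells was therefore not tested. *Sox2* was found in 29.2% of IL cells with *Tbx19* and 11% of those without, whose median depths were 4173 and 2956 UMIs. The *Sox2* IL cells carried a median of 10.1% *Pomc*, and those without *Sox2* 9.49%.

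Other regulators of pituitary lineages were counted beside the 8. Of the 16 counted, 4 had enough counts to test, and 3 (*Lhx4*, *Hesx1* and *Foxl2*) had 0 UMIs in any cell kept. In IL cells 2 of the 4 were called higher, beside 16.9% of all genes. The median log2 fold change was 1.61 over the 4, beside 0.55 over all genes. In pituicytes 1 was called higher, beside 16.8% of all genes (median 0.40, all genes 0.59), and in epithelial-like cells 2, beside 8.0% of all genes (median 2.96, all genes 0.45). These medians are of fitted values, which depend on the prior count where a type was at 0.

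The 2 called in IL cells by edgeR were *Six6*, a homeodomain factor of the developing pituitary and eye (167 and 140 CPM in the 2 pools, adjusted p = 1.09e-12), and *Nr4a1*, a nuclear receptor that acts on *Pomc* and is also an immediate early gene (661 and 545 CPM, adjusted p = 1.94e-17). Both were also called higher in IL cells than in pituicytes, where *Six6* was at 4.24 and 7.89 CPM and *Nr4a1* at 17.0 and 31.6 CPM. *Nr4a1* was called in vascular endothelia as well (705 and 881 CPM, adjusted p = 0.0058).

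*Sox9*, a partner of *Sox2* in glia and in pituitary stem cells, was called in pituicytes (488 and 300 CPM, adjusted p = 6.03e-26) and in epithelial-like cells (569 and 237 CPM, adjusted p = 4.18e-09), and was at 14.2 and 16 CPM in IL cells. *Nr3c1*, the glucocorticoid receptor, was lower in IL cells (21.3 and 36.1 CPM) than in pituicytes (102 and 142 CPM, adjusted p = 0.000473). *Six6* (518 and 288 CPM, adjusted p = 1.76e-12 by edgeR) was the other regulator called in epithelial-like cells.

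**Figure D5:**
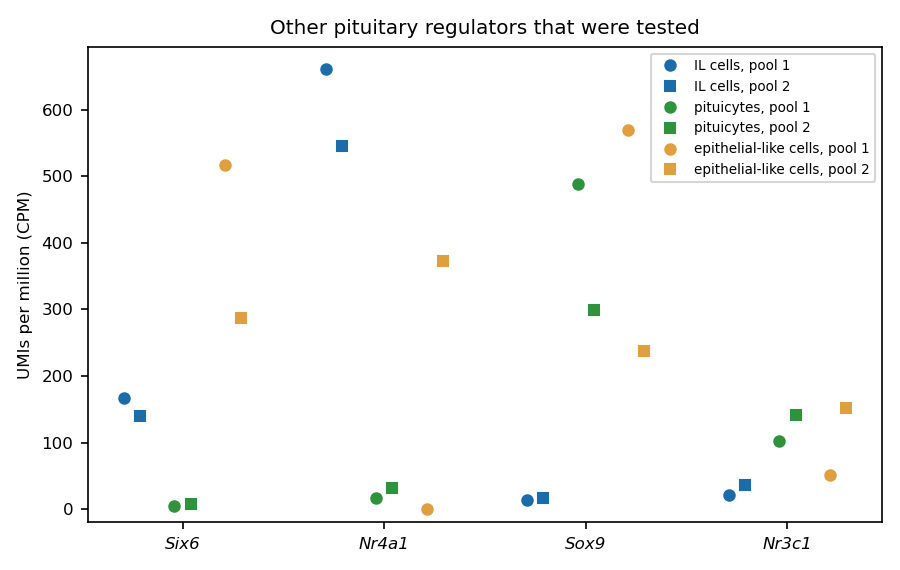
CPM (linear axis) of 4 other pituitary regulators that were tested, in IL cells (blue), pituicytes (green) and epithelial-like cells (orange); circles are pool 1 and squares are pool 2. *Six6* was above 140 CPM in IL cells and below 8 CPM in pituicytes in both pools, and *Sox9* had the reverse order.

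Genes known to lie downstream of these factors were listed as well. Of the 6 genes of the melanotrope program, 4 were tested and all 4 were called higher in IL cells, beside 16.9% of all genes: *Pomc* (119412 and 89661 CPM), *Pcsk2*, which cleaves the prohormone to melanocyte-stimulating hormone (4807 and 4532 CPM), *Oacyl* (939 and 894 CPM) and *Cpe*, a carboxypeptidase of peptide hormones (725 and 930 CPM). *Pomc* and *Pcsk2* are among the markers by which IL cells were named, so their calls follow from the choice of the type and are no separate result. The count of 4 called includes them and is no separate result either. *Oacyl* was at 0 in both pools of epithelial-like cells, vascular endothelia and VLMC. *Cpe* was also called in pituicytes (115 and 154 CPM) and epithelial-like cells (311 and 423 CPM). *Pcsk1* and *Drd2* had 13 and 2 UMIs in IL cells and were not tested. Of the 10 anterior lobe targets 4 were tested, and *Gh*, *Prl*, *Cga* and *Lhb* were all called in epithelial-like cells, beside 8.0% of all genes. There, *Gh* was at 34736 CPM in pool 1, where 2 of 7 cells carried 14.1 and 15.4% *Gh* with 0 UMIs of the 8 factors, and at 575 CPM in pool 2. *Cga* and *Lhb*, the gonadotropin subunits, were at 744 and 321 CPM in pool 2. There, 2 of the 3 *Tbx19* cells carried 21 *Cga* UMIs each, with 6 and 13 of *Lhb*. No other epithelial-like cell of pool 2 had an *Lhb* UMI or more than 2 *Cga* UMIs. *Prl* had 58 UMIs in 1 cell of pool 2, and at most 2 in any other epithelial-like cell. The calls of these 4 genes thus rested largely on a few cells of the type.

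The genes most like each factor over the 14 sums were taken by Pearson's correlation of log2(CPM + 100), as a description over sums that share their libraries. For *Pax7* they were *Rgag4*, *Syt1*, *Resp18*, *Ap3b2* and *Ccdc109b* (r = 0.968 to 0.941), for *Tbx19* they were *Rorb*, *Actl6b*, *Fam183b*, *Scg3* and *Gulo* (r = 0.989 to 0.982), and for *Sox2* they were *Cystm1*, *Ddr1*, *Nfix*, *Aldoc* and *Gsta4* (r = 0.938 to 0.888).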

How the data were processed

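For each of 2 pools the authors deposited unnormalized UMI counts, made with Cell Ranger on mm10, and a table of cluster means, a linear signal of UMIs scaled to 10000 per cell and averaged over both pools. Kept cells had over 1000 and under 10000 UMIs, over 400 and under 5000 genes and a mitochondrial share under 25%, within the 1500 deepest barcodes, which gave 528 cells. No doublet caller was run. Each cell was matched to the 11 deposited means by non-negative least squares, with a weight of at least 0.981 in its own cluster, and the deposited means of the 8 genes were recovered within 0.0018. Counts were summed per pool and type and tested with edgeR 4.0.16 (TMM, minimum count 5, minimum total 15), each type against the mean of the other types. The common dispersion was 0.0378. Sums of a pool share mice and library. Deviations of the pools correlated across types by -0.0346 to 0.148 over 21 pairs. Counting error at these depths pulls such correlations toward 0, so low values do not show that a shared pool effect is absent. Alternatives were DESeq2 1.42.0, no filter, library size, pool as a block, mitochondrial share under 10%, new Seurat 5.3.0 clusters without the listed genes, and each pool left out. The named genes were all 8 factors, each listed gene called in IL cells, pituicytes or epithelial-like cells, and the 5 most alike for *Pax7*, *Tbx19* and *Sox2*. Of the 20 listed pituitary regulators, 4 are not reported here. The genes, lists and rules were chosen with earlier results of these data known. The edgeR p-values rest on the spread between the 2 pools, taken over all 7 types in 1 fit (7 residual degrees of freedom) and shared across genes. They do not measure the spread of 1 type alone, or of 1 gene alone. The values are close to those of a normal distribution. A gene's own spread between the pools therefore added little to its p-value, and small p-values do not show that spread to be small. Ratios and shares have 95% exact intervals, and a count of 0 was taken to allow 3 UMIs or cells.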

Additional observations from a re-analysis of the deposited data

Results flagged for a closer look

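Barcodes of the 1500 deepest that failed the limits on cells were used in no comparison, and held more UMIs of most factors than the 3 that a count of 0 allows. In the 1227 such barcodes of pool 1 there were 25 UMIs of *Pax7*, 26 of *Tbx19*, 9 of *Pitx1*, 8 of *Lhx3*, 4 of *Pou1f1*, 4 of *Isl1* and 63 of *Sox2*, among 781061 UMIs. In the 1245 of pool 2 there were 24 UMIs of *Pax7*, 14 of *Tbx19*, 21 of *Pitx1*, 8 of *Lhx3*, 12 of *Pou1f1* and 44 of *Sox2*, among 747605 UMIs. *Pou1f1* had 0 UMIs in the kept cells of pool 1, so the 4 UMIs here are its only ones among the 1500 deepest barcodes of that pool. *Gh* was at 5699 CPM in these barcodes of pool 1 and 29383 CPM in those of pool 2. Each pool was too small a group to test for a sample that stands apart.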

How the results depend on the processing

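The factors called higher in IL cells numbered 2 (*Pax7* and *Tbx19*), beside 760 of 4510 genes tested. With DESeq2 there were 0 (no adjusted p for *Tbx19*, 1 of 3 at an unadjusted p under 0.05), beside 200 of 4510 genes. With mitochondrial shares under 10% there were 0, beside 271 of 2361 genes. Only *Sox2* had enough counts to test there, with 0 of 1 at an unadjusted p under 0.05. With no filter on low counts there were 5 (with *Pitx1*, *Lhx3* and *Pou1f1*), beside 2304 of 16258 genes. Against all other cells summed there were 4 (with *Pitx1* and *Lhx3*), beside 691 of 8995 genes. In IL cells against pituicytes 3 were called, *Pax7* and *Tbx19* higher and *Sox2* lower, beside 755 of 4510 genes in either direction. With DESeq2 there were 0, beside 231 of 4510 genes. *Pax7* and *Tbx19* had no adjusted p there, and 2 of 3 (*Tbx19* and *Sox2*) had an unadjusted p under 0.05. There were 0 with mitochondrial shares under 10%, beside 280 of 2361 genes. With no filter 6 were called, *Sox2* lower and the others higher (with *Pitx1*, *Lhx3* and *Pou1f1*), beside 1364 of 16258 genes. In epithelial-like cells 1 was called, beside 361 of 4510 genes. With no filter 2 were called (*Isl1* added), beside 369 of 16258 genes. New clusters gave 2 (*Pitx1* added), beside 620 of 5712 genes, and that cluster also held the vascular cells. Against all other cells summed 0 were called, beside 137 of 8685 genes. In pituicytes 1 was called, beside 756 of 4510 genes, and 0 against all other cells summed, beside 625 of 8951 genes. With pool as a replicate block the counts were 2 in IL cells, 1 in pituicytes, 1 in epithelial-like cells and 3 for IL cells against pituicytes. Beside them, 735, 727, 319 and 730 of 4510 genes were called. These counts of factors were as in the fit without the block. Library size alone changed no count of factors, beside 478, 563, 412 and 759 of 4510 genes in the same order.

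The shares of IL cells with a UMI at 1000 UMIs per cell were 12.1% for *Pax7*, 10.9% for *Tbx19*, 5.80% for *Pitx1*, 4.33% for *Lhx3*, 0.485% for *Neurod1* and 5.47% for *Sox2*. Without thinning, the shares with mitochondrial shares under 10% were 38.2% for *Tbx19* (32.4% in all IL cells), 15.8% for *Lhx3* (14.2%) and 3.95% for *Neurod1* (2.03%), and without IL cells under 1% *Pomc* 36.0% for *Pax7* (33.1%). With either pool left out, the share for *Pou1f1* was 0 to 7.35%. Log2 fold changes that were not called changed sign: *Sox2* in IL cells, -1.14 against all other cells summed; *Tbx19* in pituicytes, -1.54 with DESeq2, -1.37 with new clusters and -3.75 against all other cells summed; *Pax7* in pituicytes, -1.18 to 0.035 with either pool left out; in epithelial-like cells against all others summed, *Pax7* -1.50 and *Tbx19* -0.50, and with either pool left out, *Pax7* -1.18 to 4.33 and *Tbx19* -2.09 to 4.04. The causes were not tested. Only higher levels could be called here, so a negative fold was not called whatever its p-value. Against all other cells summed, edgeR gave adjusted p = 0.0079 for *Sox2* in IL cells and 1.98e-05 for *Tbx19* in pituicytes. *Pax7*, *Pitx1* and *Lhx3* were also lower in pituicytes there (log2 -5.21, -7.17 and -6.30, adjusted p = 4.37e-06, 4.54e-05 and 0.00156 by edgeR). The depth of the vascular types and of epithelial-like cells in pool 1 limits what a count of 0 shows there.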
